A study of Mus musculus with 4 samples.

Results

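The mitochondrial ribosomal protein genes of mouse T-helper 17 (Th17) cells were taken as the genes whose symbol is Mrpl or Mrps followed by a number and at most 1 letter. The rule found 78 of the 50600 genes counted, and all 78 are protein coding. By textbook assignment 51 belong to the large subunit and 26 to the small subunit, and Mrps36, despite its name, is known as a component of the 2-oxoglutarate dehydrogenase complex. The genes lie on 17 chromosomes, with 11 on chromosome 11, 8 on chromosome 17 and 7 on chromosome 6.

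The RNA came from primary Th17 cells of C57BL/6NJ mice. The 4 libraries form 1 group, with no second group to set against it. Th17 cells are CD4 T cells named for interleukin 17, and the labels link a protocol for their differentiation without naming the agents used. The labels number the libraries as biological replicates 1 to 4, give them separate biosamples and 1 shared donor identifier, and give neither sex nor age. Whether these biosamples are separate animals or cultures is not stated, so SDs and p-values measure only the spread between these 4 libraries. A tag of 2 hours stands in the header names of all the tables, with no word on the event it was counted from.

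The mitochondrial ribosome is a separate machine inside mitochondria that translates the few proteins encoded by mitochondrial DNA, all of them subunits of the respiratory chain and ATP synthase. Its RNAs come from mitochondrial DNA, but its proteins are encoded in the nucleus, translated in the cytosol and imported. Part of them descend from bacterial ribosomal proteins and part are found only in mitochondria. Activated T cells are known to enlarge their mitochondrial machinery, and NRF1, the ETS factor GABP and YY1 are the transcription factors best known for driving nuclear genes of mitochondria.

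Total counts were 36298276, 40652146, 26953724 and 25847970 fragments in replicates 1 to 4, of which 61111, 67179, 43306 and 45998 fell on the mitochondrial ribosomal protein genes. A gene with no fragment could still have up to 3, which is 0.0826, 0.0738, 0.111 and 0.116 CPM (the count per 1e6 counts of the library) in replicates 1 to 4, and this limit covers counting error only. Levels are given as TPM, the count divided by the exon length of the gene and scaled so that each library sums to 1e6, as mean ± SD over n = 4 libraries. All 4 CD4 T cell markers and all 5 Th17 markers had a mean of at least 1 TPM, with Il17a, the cytokine gene the cells are named for, at 5.65 TPM. Of the other markers 1 of 2 for CD8 T cells (Cd8b1, 27.0 TPM) and 1 of 3 for B cells (Cd79a, 1.15 TPM) reached 1 TPM, and the summed B cell markers ranged from 0.392 to 1.71 TPM between libraries. None of 4 myeloid markers did (summed level 0.733 to 1.42 TPM), the NK and erythroid markers had no count, and the stromal and epithelial markers summed to at most 0.0395 TPM. Sex-linked genes divided the libraries, with Xist at 0.791, 0.602, 142 and 76.5 TPM and the Y-linked Ddx3y at 305, 213, 0.914 and 1.39 TPM in replicates 1 to 4. Replicates 1 and 2 thus came from cells of another sex than replicates 3 and 4, and the labels do not say whether the libraries within each pair are separate animals. The part of sex or of other cells in the values below was not tested. In such bulk libraries fewer cells of a type and less RNA per cell cannot be told apart.

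Nearly the whole gene set was expressed, at an ordinary level for an expressed gene. A mean of at least 1 TPM was reached by 77 of the 78 genes, and at least 10 TPM by 64 of them, whereas 9831 of all 21764 protein coding genes reached 1 TPM. The median mitochondrial ribosomal protein gene stood at 26.02 TPM, with quartiles at 13.4 and 53.4 TPM, beside a median of 24.9 TPM over the protein coding genes of at least 1 TPM. That places it at percentile 51.2 of those genes. Library by library the median was 25.5, 25.3, 25.6 and 27.1 TPM in replicates 1 to 4, so the libraries differed by less than 2 TPM. With the length of the principal transcript, introduced below, the median was 30.4 TPM in the set. Over the protein coding genes of at least 1 TPM it was then 25.6 TPM.

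The genes that encode the cytosolic ribosome and the respiratory chain were far more abundant. The median mitochondrial ribosomal protein gene at 26.02 TPM compared with 85.5 TPM over 80 nuclear genes of the respiratory chain and ATP synthase, and with 1057 TPM over 86 cytosolic ribosomal protein genes. Summed, the mitochondrial set took 0.289 ± 0.0103% of all TPM, the respiratory chain set 1.09 ± 0.0632% and the cytosolic set 13.8 ± 1.17% (SD, n = 4 libraries each). In each library the cytosolic sum was larger than the mitochondrial sum, by 46.6, 51.4, 43.6 and 48.6 times in replicates 1 to 4, and the respiratory chain sum was larger by 3.67, 4.03, 3.59 and 3.71 times. The spread among genes was alike in the 3 sets, since the interquartile range of log2(mean TPM + 1) was 1.92 for the mitochondrial ribosomal proteins, 1.94 for the respiratory chain and 1.87 for the cytosolic ribosomal proteins. Over all protein coding genes of at least 1 TPM it was 2.95. With principal transcript lengths the median was 113 TPM in the respiratory chain set and 1773 TPM in the cytosolic set, both again above the mitochondrial set.

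**Figure D1:**
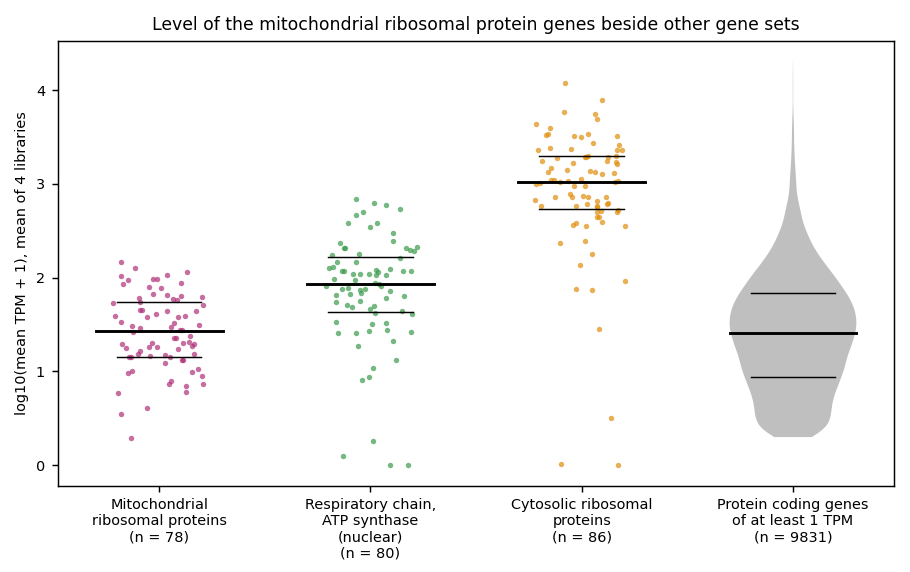
Mean level of each gene on a scale of log10(mean TPM + 1), over 4 libraries, for the 78 mitochondrial ribosomal protein genes, 80 nuclear respiratory chain and ATP synthase genes, 86 cytosolic ribosomal protein genes and, as a grey density, 9831 protein coding genes of at least 1 TPM. Points are genes, thick lines medians and thin lines quartiles; the mitochondrial set has its median near that of all expressed genes and below both other sets.

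The promoters of these genes were searched for motifs of NRF1, of YY1 and of ETS factors in general, not of GABP alone. They were taken from RefSeq on GRCm38.p6 as windows of 300 bases that begin 250 bases before the gene's start. Entries were found for 69 of the 78 genes, in 75 windows because some genes have more than 1. The NRF1 motif was searched as CGCANGCG, the ETS motif as CCGGAAG and the YY1 motif as AAGATGGCG, each on both strands. NRF1 matches lay in 26.7% of the mitochondrial ribosomal protein windows, 40.3% of 72 respiratory chain windows, 20.5% of 78 cytosolic ribosomal protein windows, 18.4% of 9951 windows of other protein coding genes of at least 1 TPM and 8.21% of all 32851 windows. ETS matches lay in 34.7% of the mitochondrial ribosomal protein windows, 23.6% of the respiratory chain windows, 33.3% of the cytosolic ribosomal protein windows, 20% of the windows of other expressed genes and 8.86% of all windows. YY1 matches were rarer, at 10.7% of the mitochondrial ribosomal protein windows, 9.72% of the respiratory chain windows, 7.69% of the cytosolic ribosomal protein windows, 3.49% of the windows of other expressed genes and 1.4% of all windows. Motif matches are a description of letters and were not tested against chance.

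For common promoter motifs the shares were closer, or lower in the set. The CCAAT box lay in 40% of the mitochondrial ribosomal protein windows and 38% of the windows of other expressed genes, and the E-box CACGTG in 9.33% of the mitochondrial ribosomal protein windows and 10.5% of the others. The GC-box GGGCGG was in 52% of the mitochondrial ribosomal protein windows and in 64.3% of the windows of other expressed genes. Of the 69 genes, 44 held at least 1 of the NRF1, ETS and YY1 motifs, 9 held at least 2 and 1, Mrps27, held all 3. The 44 genes with a match had a median level of 27.5 TPM and the 25 without had 25.5 TPM. By factor, the median was 29.9 TPM in 20 genes with an NRF1 match and 21.97 TPM in 49 without, 19.2 TPM in 26 genes with an ETS match and 28.1 TPM in 43 without, and 19.5 TPM in 8 genes with a YY1 match and 26.8 TPM in 61 without. The levels of the genes with and without each motif overlapped, from 9.17 to 115 TPM with NRF1 and from 0.957 to 127 TPM without it. Overlapping matches of different motifs occurred in 2 of the 75 windows.

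**Figure D2:**
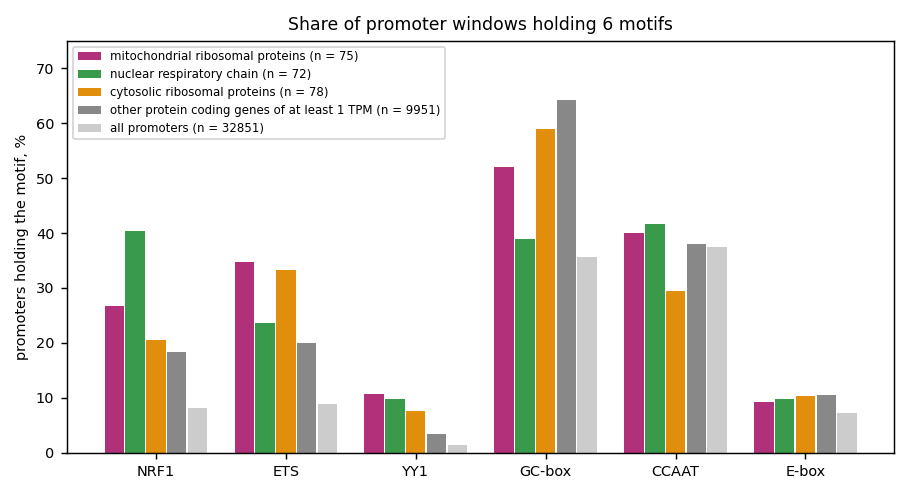
Percent of promoter windows that hold each of 6 motifs, for 75 windows of mitochondrial ribosomal protein genes, 72 of respiratory chain genes, 78 of cytosolic ribosomal protein genes, 9951 of other protein coding genes of at least 1 TPM and all 32851. The bars for NRF1, ETS and YY1 stand higher in the mitochondrial ribosomal protein set (26.7%, 34.7% and 10.7%) than in other expressed genes (18.4%, 20% and 3.49%), and the GC-box bar stands lower.

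For 4 genes, chosen after their values were seen, the 130 bases directly before the start are printed 5′ to 3′ on the gene's strand, because they show these motifs in place. Capitals mark matches to the NRF1 or ETS motif. Mrpl9 and Mrpl12 are the most abundant genes with an NRF1 match, Mrpl43 holds both motifs close to its start, and Mrps27 is the gene with all 3.
Mrpl9: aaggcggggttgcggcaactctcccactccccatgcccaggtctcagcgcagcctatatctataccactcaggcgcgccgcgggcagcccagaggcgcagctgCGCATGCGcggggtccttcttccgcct
Mrpl12: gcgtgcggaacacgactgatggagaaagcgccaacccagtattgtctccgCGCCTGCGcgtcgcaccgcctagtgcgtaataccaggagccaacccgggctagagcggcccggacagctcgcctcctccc
Mrpl43: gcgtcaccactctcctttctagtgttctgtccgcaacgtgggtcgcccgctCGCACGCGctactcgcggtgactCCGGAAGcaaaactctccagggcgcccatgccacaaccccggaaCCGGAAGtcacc
Mrps27: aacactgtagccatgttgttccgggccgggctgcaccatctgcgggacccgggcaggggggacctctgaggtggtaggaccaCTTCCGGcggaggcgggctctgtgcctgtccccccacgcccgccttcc
The Mrpl9 stretch is chr3:94443206-94443335 on the plus strand, with an NRF1 match whose first base lies 27 bases before the start. The Mrpl12 stretch is chr11:120484507-120484636 on the plus strand, with an NRF1 match 80 bases before the start. The Mrpl43 stretch is chr19:45006443-45006572 on the minus strand, with an NRF1 match 79 bases and ETS matches 56 and 12 bases before the start. The Mrps27 stretch is chr13:99344656-99344785 on the plus strand, with an ETS match, in reverse orientation, 48 bases before the start. The NRF1 match of Mrps27, 151 bases before the start, and its YY1 match lie outside the printed bases. Of the factors, Yy1 averaged 146 ± 5.17 TPM, Gabpa, the DNA-binding part of GABP, 54.0 ± 1.47 TPM and Nrf1 16.7 ± 0.539 TPM. Which ETS factors bind the ETS matches was not tested.

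Many of these genes start close to another gene that runs the opposite way. A protein coding neighbour on the opposite strand started at most 1000 bases before the gene's own start in 18 of the 78 genes (23.1%). The same held in 19 of 80 respiratory chain genes (23.8%) and in 1150 of 9747 other protein coding genes of at least 1 TPM (11.8%). Pairs that overlap at their starts were not counted, among them Mrpl46 and Mrps11 of the set. Of the 18 neighbours, 16 were themselves at 1 TPM or more, and the mitochondrial ribosomal protein gene was the more abundant of the pair in 14. Some neighbours serve mitochondrial gene expression as well. Mrps12 (37.9 TPM) starts 172 bases from Sars2, the mitochondrial seryl-tRNA synthetase (19.9 TPM), and Mrpl43 (78.1 TPM) 116 bases from Twnk, the mitochondrial DNA helicase (16.4 TPM). Mrpl54 (145 TPM) starts 26 bases from Apba3, an adaptor protein gene at 13.1 TPM. In the other direction, Mrpl49 at 26.8 TPM starts 137 bases from Fau, a cytosolic ribosomal protein gene at 2698 TPM, and Mrpl32 at 94.8 TPM starts 205 bases from the proteasome gene Psma2 at 541 TPM.

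The large subunit set had a median of 26.8 TPM and the small subunit set 24.3 TPM. The ratio of the 2 medians was 1.07, 1.15, 1.06 and 1.12 in replicates 1 to 4. This order turned round with the length of the principal transcript in place of the whole exon length, introduced below, where the large subunit median was 30.02 TPM and the small subunit median 31.3 TPM. Within the large subunit the 31 proteins with a bacterial homolog had a median of 21.97 TPM and the 20 mitochondrion-specific proteins 27.5 TPM. In the small subunit the order was the other way, with 36.8 TPM over 17 bacterial homologs and 12.4 TPM over 9 mitochondrion-specific proteins. With principal lengths the large subunit medians were 30.8 TPM over bacterial homologs and 26.7 TPM over mitochondrion-specific proteins, and the small subunit medians 35.7 TPM and 11.8 TPM in the same order, so the order turned round in the large subunit and stayed in the small subunit. These groups of genes were described and not tested.

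Among the large subunit genes, Mrpl54, Mrpl9, Mrpl12, Mrpl52 and Mrps30 were the most abundant. Mrpl54, a mitochondrion-specific protein, was at 141, 156, 124 and 160 TPM in replicates 1 to 4 (145 ± 16.4). It lies on chromosome 10 from 81264713 to 81266934 (mm10), and its libraries differed by 1.29 times at most. Mrpl9, the counterpart of bacterial L9, was at 118, 113, 114 and 116 TPM (115 ± 2.08), a profile nearly flat on the TPM scale and resting on 11853 fragments. Its printed promoter stretch carries an NRF1 match.

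Mrpl12, the counterpart of the bacterial stalk protein L7/L12 that recruits translation factors, was at 120, 88.9, 79.5 and 132 TPM (105 ± 24.9). Replicates 1 and 4 were high and replicates 2 and 3 low, the same pattern that gave Mrpl12 the smallest p of the set below. Mrpl52, also mitochondrion specific, was at 98.6, 98.8, 104 and 110 TPM (103 ± 5.26). Mrps30, a large subunit protein in spite of its name, was at 102, 94.1, 95.7 and 89.2 TPM (95.2 ± 5.26).

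The 5 least abundant large subunit genes were Mrpl53, Mrpl48, Mrpl23, Mrpl13 and Mrpl42. Mrpl53 rested on 9, 1, 6 and 10 fragments, or 1.08, 0.104, 1.00 and 1.64 TPM in replicates 1 to 4, and it was the only gene of the set with a mean under 1 TPM. The fragment count of replicate 2 is under the 3 counts that a 0 allows. Mrpl53 lies on chromosome 6 from 83109040 to 83109939, and 88.0% of its exon bases are also exon of Gm42688 on the same strand. Fragments that lie in both genes were not counted for either, and Gm42688 itself had 187 fragments over the 4 libraries. The level of Mrpl53 thus counts only fragments that can be told apart from Gm42688.

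The other 4 low genes had long annotated exons and more fragments. Mrpl48 was at 5.13, 4.58, 5.47 and 4.70 TPM, from 1531 fragments. Mrpl23, the counterpart of bacterial L23 at the mouth of the exit tunnel, was at 7.52, 5.56, 6.68 and 4.48 TPM, and Mrpl13 at 6.53, 5.77, 5.79 and 7.17 TPM. Mrpl42 was at 8.03, 7.88, 7.57 and 8.54 TPM. Within each of these genes the libraries lay within 1.68 times of each other, so the low values were shared by all 4 libraries.

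In the small subunit, Mrps23, Mrps16, Mrps7, Mrps18c and Mrps18b were the most abundant. Mrps23, mitochondrion specific, was at 125, 136, 123 and 122 TPM in replicates 1 to 4 (127 ± 6.33), on chromosome 11 from 88204388 to 88211507. Mrps16, the counterpart of bacterial S16, was at 73.4, 83.4, 88.6 and 99.9 TPM (86.3 ± 11.03). Mrps7, the counterpart of S7 in the head of the subunit, was at 69.1, 60.1, 64.2 and 72.1 TPM (66.4 ± 5.33). The libraries of these 3 genes differed by 1.36 times at most.

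At the other end, Mrps25, Mrps35, Mrps10, Mrps33 and Mrps31 were the least abundant of the small subunit. Mrps25 was at 2.34, 2.34, 2.95 and 2.44 TPM, and 68.9% of its 31-base words also occur in another gene, so fragments may have been lost as multiply aligned. Mrps35 was at 2.91, 3.29, 3.17 and 2.77 TPM, with 0.713% of shared words. Mrps10, the counterpart of bacterial S10, was at 6.69, 5.11, 7.24 and 6.60 TPM, Mrps33 at 6.96, 5.40, 7.92 and 7.69 TPM and Mrps31 at 10.4, 8.20, 8.75 and 10.9 TPM. Of these 5, Mrps10 is the only bacterial homolog. Mrps36, the dehydrogenase component, was lower than most, at 2.91, 4.62, 4.46 and 7.52 TPM (4.88 ± 1.92), and replicate 4 was 2.58 times replicate 1 on 228 fragments in all.

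**Figure D3:**
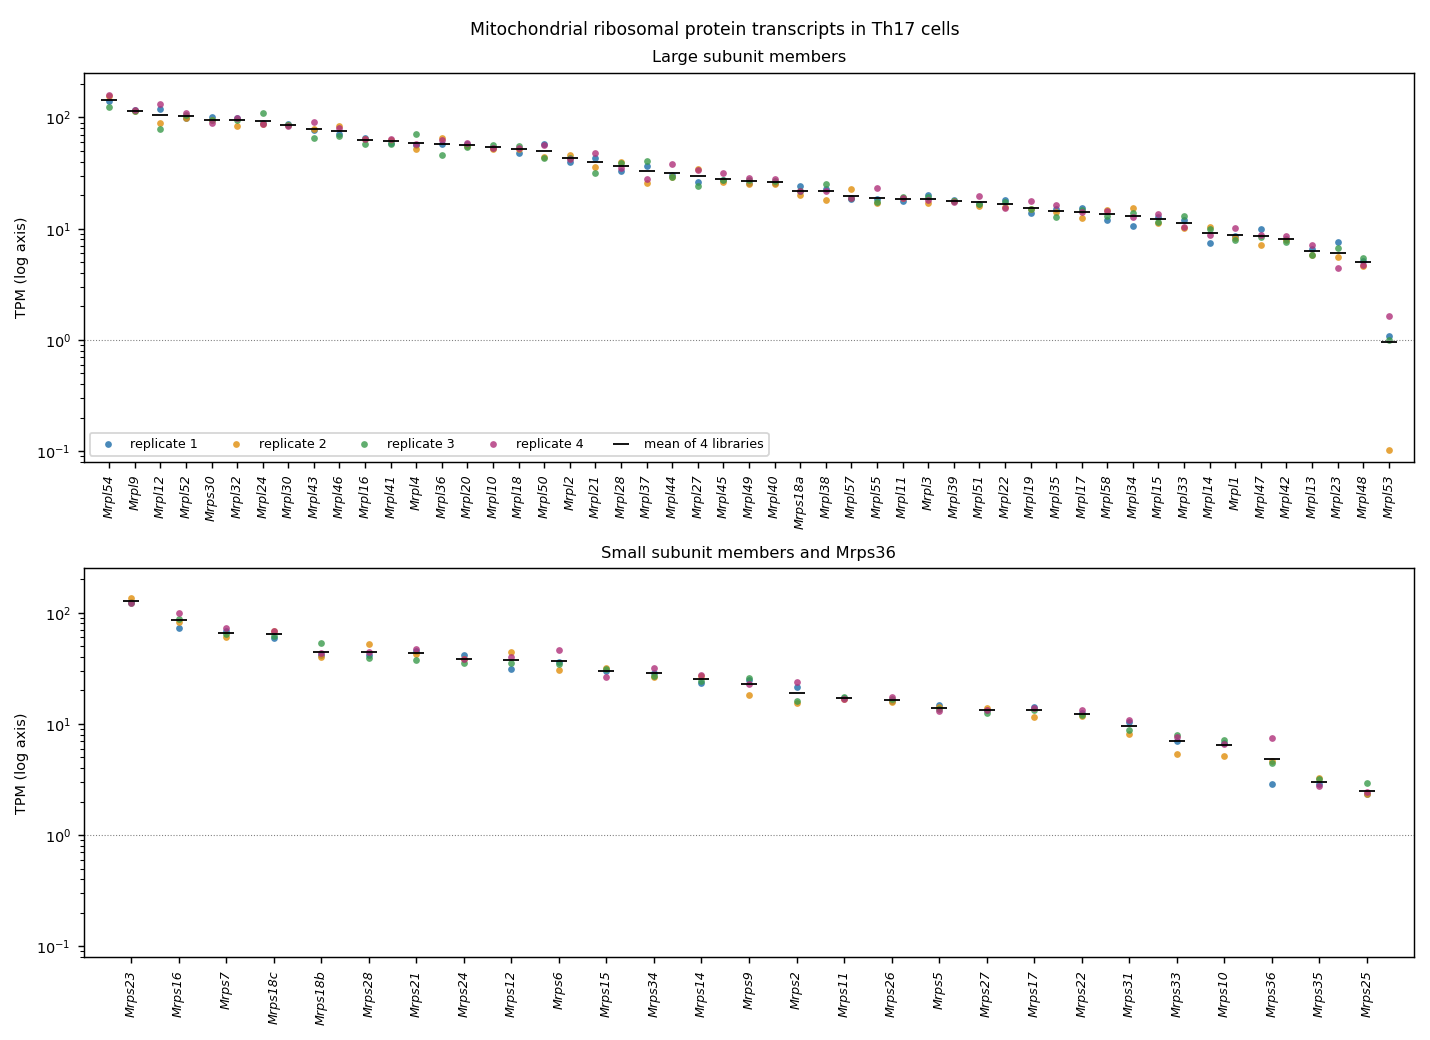
TPM (log axis) of each mitochondrial ribosomal protein gene in replicates 1 to 4, with the mean of the 4 libraries as a bar, for 51 large subunit genes and for 26 small subunit genes with Mrps36, in order of mean. In the large subunit, levels fall from Mrpl54 (145 TPM) to Mrpl48 (4.97 TPM), with Mrpl53 (0.957 TPM) set apart below. In the small subunit they fall from Mrps23 (127 TPM) to Mrps25 (2.52 TPM). The dotted line is 1 TPM.

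Over the whole set the highest mean was 151 times the lowest, and 57.5 times without Mrpl53. Much of this order depends on which length a count is divided by. The deposited length is the union of all annotated exons of a gene and ran from 566 to 8631 bases over the set (median 2080.5), while the principal protein coding transcript in GENCODE M21, capped at the union length in 11 genes where it was longer, ran from 418 to 7300 bases (median 1216.5). Across the 78 genes TPM fell with union length (Spearman rho -0.54), a relation nearly absent over 9754 other protein coding genes of at least 1 TPM (rho -0.051); genes are not replicates and the level contains the length, so this is a description. TPM by principal length also fell with principal length (rho -0.455), so this fall was present with either length. TPM from both lengths had a Spearman rho of 0.82, and 8 genes moved by more than 20 of 78 ranks.

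The genes that moved were ones with long annotated exons. The union length was at least 4 times the principal length in 7 genes, namely Mrpl33, Mrps10, Mrpl23, Mrpl13, Mrpl42, Mrps18a and Mrps9. Mrpl33, the counterpart of bacterial L33, went to rank 5 with 122 TPM by principal length, against rank 64 with 11.4 TPM by union length. By principal length Mrpl42 had 31.1 TPM, Mrpl23 30.0 TPM, Mrpl13 28.8 TPM and Mrps10 35.7 TPM, so these 4 no longer stood at the low end. Mrpl30 led the set by principal length, with 199.97 TPM, against 85.5 TPM and rank 10 by union length. Mrpl53, Mrps25, Mrps35, Mrps36 and Mrpl48 held ranks 78 to 74 by both lengths.

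**Figure D4:**
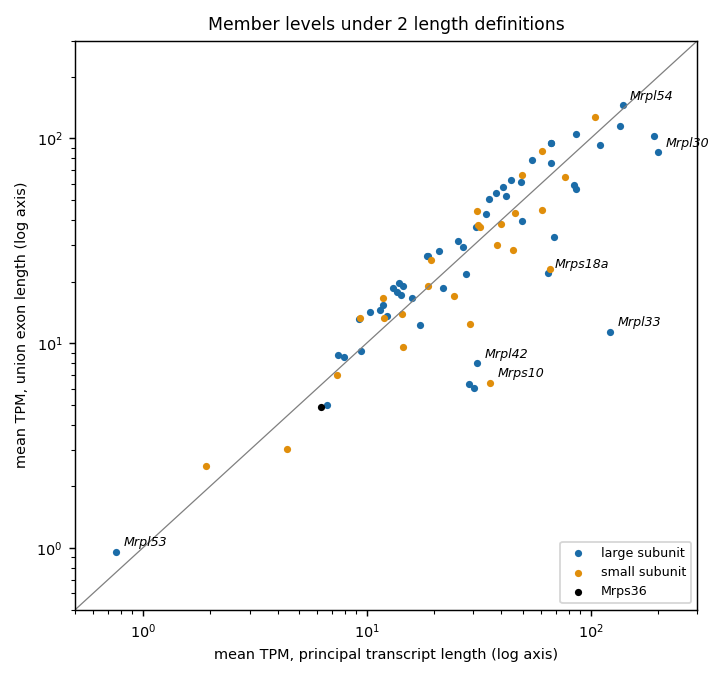
Mean TPM of the 78 genes over 4 libraries with the principal transcript length (x, log axis) against the union exon length (y, log axis), by subunit. Points far below the line of equality are genes with long union exons, with Mrpl33 at 122 against 11.4 TPM as the farthest.

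The mitochondrial ribosome has 3 paralogs of bacterial S18, of which Mrps18b and Mrps18c are assigned to the small subunit and Mrps18a to the large subunit. Mrps18a was at 23.97, 19.99, 21.97 and 21.95 TPM, Mrps18b at 41.9, 40.1, 53.1 and 43.1 TPM and Mrps18c at 59.8, 67.9, 62.1 and 68.9 TPM in replicates 1 to 4. The 3 genes did not overlap in any library and kept the order a, b, c. On the log2(TPM + 1) scale Mrps18b minus Mrps18a was 0.98 ± 0.19, Mrps18b minus Mrps18c -0.53 ± 0.23 and Mrps18a minus Mrps18c -1.52 ± 0.19 (SD, n = 4 libraries), each with the same sign in 4 of 4 libraries. In all 6 pairs were compared. An exact two-sided permutation test that flips the sign of each library's difference gave p = 0.13 for each (0.13 after adjustment over the 6), the smallest value 4 libraries allow, so no pair could pass 0.05.

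The order of the S18 paralogs rests on the length used. By principal length Mrps18a had 64.4 TPM, Mrps18b 60.6 TPM and Mrps18c 76.6 TPM, and the difference of Mrps18b minus Mrps18a became -0.09, Mrps18b minus Mrps18c -0.34 and Mrps18a minus Mrps18c -0.25. By CPM, which ignores length, Mrps18b minus Mrps18a became 0.19, Mrps18b minus Mrps18c 0.40 and Mrps18a minus Mrps18c 0.21. For Mrps18c, 23.2% of the exon bases overlap Gm43511 on the same strand, where fragments in both were not counted.

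The other 3 pairs kept their signs under each alternative run, though not their sizes. Mrpl12, present in several copies per ribosome, exceeded its anchor Mrpl10 (53.4, 52.6, 56.4 and 53.0 TPM), with a log2(TPM + 1) difference of 0.92 ± 0.37 and a positive sign in 4 of 4 libraries. Mrps12, the counterpart of the decoding protein S12, was at 31.2, 44.5, 35.5 and 40.2 TPM, below Mrps7 by -0.80 ± 0.29 in 4 of 4 libraries, a difference that was -1.73 by CPM and -0.64 by principal length. Mrpl58, a release factor relative built into the large subunit, was at 12.05, 14.9, 13.04 and 14.5 TPM, below the exit tunnel protein Mrpl4 (56.1, 52.1, 70.7 and 58.1 TPM) by -2.04 ± 0.26 in 4 of 4 libraries, a difference that was -1.69 by CPM and -2.68 by principal length. Each of these also had p = 0.13 in the exact permutation test. Further structural members were Mrpl11 of the stalk base at 18.6 ± 0.647 TPM, Mrpl57 at 19.8 ± 1.88 TPM, Mrpl55 at 19.0 ± 3.00 TPM and Mrpl47 at 8.56 ± 1.21 TPM.

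Variation between the libraries was tested by asking, with edgeR, whether a gene's counts spread more than the trend of genes of like abundance. None of the 77 testable mitochondrial ribosomal protein genes was called at an adjusted p under 0.05, where 94 of all 11567 genes tested (0.813%) were called. At an unadjusted p under 0.05, edgeR gave 2 of the 77 (2.60%) and 692 of the 11567 (5.98%). With the size factors and dispersion trend of DESeq2, 0 of the 77 were called, 3 were under an unadjusted 0.05, and over all genes 94 (0.813%) were called and 676 (5.84%) were under 0.05 unadjusted. The smallest adjusted p from edgeR belonged to Mrpl12 (0.170), followed by Mrps2 (0.754) and Mrpl21 (0.845).

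These 3 genes shared one pattern. Mrps2, the counterpart of bacterial S2, was at 21.4, 15.4, 15.97 and 23.7 TPM in replicates 1 to 4, and Mrpl21, the counterpart of L21, at 43.0, 36.2, 31.8 and 47.9 TPM. In each of the 3, as in Mrpl12, replicates 1 and 4 were above replicates 2 and 3, by 1.66 times between the extremes in Mrpl12, 1.54 in Mrps2 and 1.51 in Mrpl21. Since they were picked as the most variable of the set, this is a description.

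On the TPM scale most of the genes were steadier than that. The highest library was a median of 1.23 times the lowest, from 1.03 times in Mrpl30 to 2.58 times in Mrps36 over the 77 genes, and it was under 1.5 times in 70 of them. The coefficient of variation was under 10% in 43. Its median was 9.39% over the 77 genes, against 13.2% over 7504 other tested genes in the same range of 228 to 11853 fragments. Between the quartiles of the set's fragment counts, from 1441 to 3508 fragments, it was 8.52% in 39 mitochondrial ribosomal protein genes and 12.4% in 1834 others. On TPM the median log2 difference of replicate 4 minus replicate 3, described below, was 0.07 in the set and -0.18 over all genes tested. With TMM scaling it was 0.25 and 0.00. How far the lower variation of the set depends on the scaling was not tested, since the coefficient was not computed with TMM scaling. Mrpl30, the counterpart of bacterial L30, was the steadiest on TPM at 87.2, 85.0, 85.2 and 84.6 TPM, followed by Mrpl9.

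**Figure D5:**
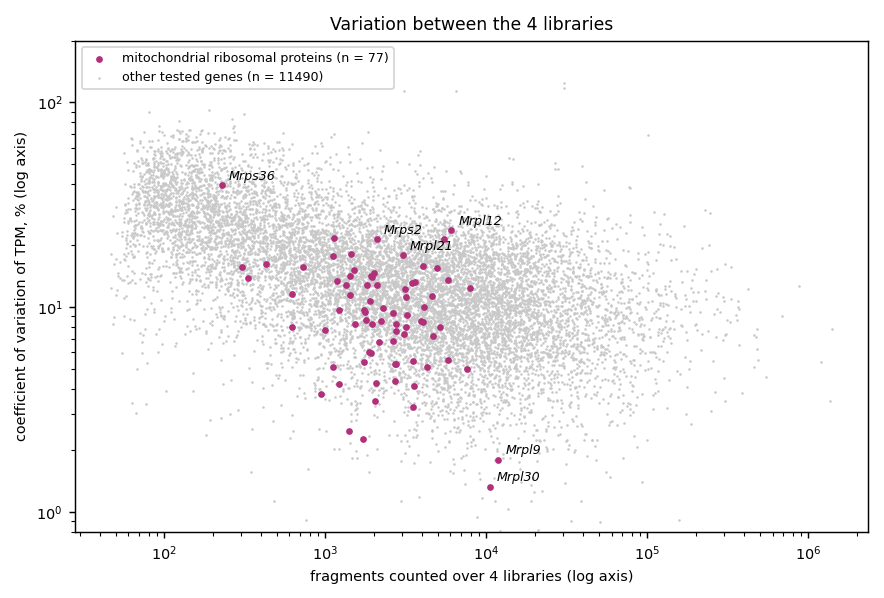
Coefficient of variation of TPM between the 4 libraries (percent, log axis) against the fragments counted over the 4 libraries (log axis), for 77 mitochondrial ribosomal protein genes and 11490 other tested genes. On the TPM scale the set has a median of 9.39% and lies mostly in the lower part of the cloud, with Mrps36 and Mrpl12 high and Mrpl30 and Mrpl9 low.

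The set as a whole differed slightly between replicates 3 and 4, with genes on both sides. Replicate 4 was compared with replicate 3 because the counts of highest libraries, seen first, pointed to them. The median over the 77 genes of the difference in log2(value + 0.5), replicate 4 minus replicate 3, was 0.07 on the TPM scale, 0.15 on CPM and 0.25 with TMM scaling, where all 11567 genes tested had medians of -0.18, -0.09 and 0.00. Relative to all genes tested, the set was thus 0.25 higher in replicate 4. The scales differ by a constant per library, so this relative value is alike on all of them by construction. The cytosolic ribosomal proteins (83 tested) were 0.42 to 0.43 higher by the same relative measure and the respiratory chain genes (76 tested) 0.33 to 0.34.

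With TMM scaling, replicate 4 exceeded replicate 3 in 65 of the 77 mitochondrial ribosomal protein genes (84.4%), in 83 of 83 cytosolic ribosomal protein genes, in 72 of 76 respiratory chain genes (94.7%) and in 50.01% of all genes tested. On the TPM scale it did so in 46 of the 77 (59.7%) and in 30.9% of all genes tested. Replicate 3 was the lowest of the 4 libraries in 64.9% of the mitochondrial set with TMM scaling and in 31.9% of all genes tested. On TPM, where the libraries are scaled otherwise, replicate 2 was the most frequent lowest library, in 34 of the 77 genes (44.2%). Over all genes tested 31.9% were lowest in replicate 2 and 35.4% in replicate 4 on that scale. These shifts of whole sets were described and not tested.

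Other genes of mitochondrial translation were expressed alongside. Mitochondrial ribosomal proteins that carry other names stood at a median of 34.8 TPM, and all 5 reached 1 TPM. Chchd1, a small subunit protein, averaged 88.4 ± 13.4 TPM and Aurkaip1, also of the small subunit, 75.3 ± 5.45 TPM. Dap3, the GTP-binding small subunit protein, averaged 34.8 ± 3.19 TPM, Gadd45gip1 of the large subunit 28.1 ± 3.13 TPM and Ptcd3, an RNA-binding small subunit protein, 25.98 ± 5.26 TPM. Each lay inside the range of the 78 genes.

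Assembly and translation factors were mostly lower than the ribosomal proteins. Of 24 assembly factors 23 reached 1 TPM, with a median of 14.2 TPM. They ranged from Ybey at 0.508 TPM, an rRNA endonuclease in bacteria, to Rbfa, a small subunit maturation factor, at 74.5 ± 5.35 TPM. All 15 translation factors reached 1 TPM, with a median of 9.87 TPM, from the release factor gene Mtrf1 at 1.10 TPM to Tufm, the mitochondrial elongation factor Tu, at 40.9 ± 3.86 TPM. All 17 mitochondrial aminoacyl-tRNA synthetases did so as well, with a median of 11.8 TPM, led by Lars2 at 322 ± 54.6 TPM. The upper quartile of these synthetases was 20.4 TPM, so Lars2 stood far apart from most of them. The 10 mitochondrial proteases and chaperones had a median of 74.9 TPM, from Phb, prohibitin, at 18.8 TPM to Hspa9, the mitochondrial Hsp70, at 479 ± 59.0 TPM. In Tufm 58.2% of the 31-base words also occur in another gene, in Rbfa 41.2% and in Phb 34.4%, so fragments of these genes may not have been counted.

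Of 12 regulators of mitochondrial transcription and biogenesis 11 reached 1 TPM, with a median of 18.9 TPM. Yy1 was the highest and Ppargc1a, the coactivator PGC-1 alpha, the lowest at 0.0822 TPM, while its relative Pprc1 averaged 133 ± 23.7 TPM. Polrmt, the mitochondrial RNA polymerase that Mrpl12 is known to bind, averaged 15.9 ± 2.59 TPM. The mitochondrial ribosomal RNAs mt-Rnr2 and mt-Rnr1 averaged 1800 ± 109 and 940.0 ± 60.8 TPM, in libraries whose linked protocol is named for poly(A)+ RNA. Of the 13 mitochondrially encoded proteins, the products of the mitochondrial ribosome, 7 reached 1 TPM, led by mt-Co1 at 20415 ± 1096 TPM. The other 6 had at most 11 fragments in all 4 libraries, and in 5 of them at least 98.1% of the 31-base words occur in another gene, so fragments may not have been counted. In mt-Co1 63.9% of these words are shared, so its level has the same limit. In none of these 8 lists was a gene called as varying between the libraries, beside 0.813% of all genes tested.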

How the data were processed

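Values are the authors' deposited raw fragment counts per gene, made with featureCounts 1.4.6-p4 on GENCODE M13 exons, for pairs with both ends mapped and reverse strandedness (option value 2), per the file headers. The labels' assembly is mm10. STAR appears in the headers' alignment names, its version not given in the sources used here. The recorded options do not keep fragments that align to several places or overlap several genes, so these were left uncounted. TPM and CPM were computed here from the deposited counts and union exon lengths. Symbols and biotypes come from GENCODE M21, which held 50376 of the 50600 identifiers, and 224 were not matched. The deposited counts of any library pair differed by more than counting noise (chi-square per degree of freedom 15.3 to 49.0).

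With 1 group there was no coefficient for edgeR's quasi-likelihood test. Variation was instead tested with edgeR 4.0.16 (R 4.3.3; TMM scaling, filtered by expression, no covariate): each gene's negative binomial deviance, taken at the trended dispersion, was compared with chi-square on 3 degrees of freedom, and p-values were adjusted by Benjamini-Hochberg over 11567 genes. The common biological coefficient of variation was 15.1%. DESeq2 1.42.0, other filters, scalings, lengths and left-out libraries were alternatives. The test was checked on simulated counts. Pairs used log2(TPM + 1) and an exact sign-flip permutation test. Python 3.11.15, pandas 2.3.3 and scipy 1.17.1 did the rest.

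The genes, lists, subunit assignments and tests were chosen with earlier results of these data known. Genes were named by rule: the 5 highest and 5 lowest of each subunit, the 3 smallest adjusted p-values, a fixed structural set, the extremes of each list and the mitochondrial ribosomal proteins with other names; some genes these rules reach are not reported here. Genes named for another reason (promoters, neighbours, lengths, flat profiles) were chosen after their values were seen.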

Additional observations from a re-analysis of the deposited data

Results flagged for a closer look

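Values of the 78 genes and of 9 summary measures, 87 in all, were checked for 1 library standing apart from the other 3, and 5 were marked, where chance marks about 1 in 20. Mrpl24 was at 110 TPM in replicate 3 and between 86.5 and 89.3 TPM in the others. Mrps25 was at 2.95 TPM in replicate 3 and between 2.34 and 2.44 TPM in the others. Mrpl57 was at 22.6 TPM in replicate 2 and between 18.6 and 19.0 TPM in the others. Mrpl51 was at 19.7 TPM in replicate 4 and between 16.1 and 16.6 TPM in the others. The median TPM of the 78 genes was 27.1 in replicate 4 and between 25.3 and 25.6 in the others. In each case the library that stood apart was the highest.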

How the results depend on the processing

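No paired analysis was possible because there is only 1 group. Among the recomputed values 3 differences reversed and 6 values without a test moved by more than their spread; no pair could pass the threshold under any setting. The median of the set, 26.02 TPM, became 27.9 TPM with protein coding genes alone in the total, 21.97 TPM over the 49 genes with at most 10% of shared 31-base words, 23.0 TPM over the 73 genes with at most 10% of exon bases overlapped and 30.4 TPM with principal transcript lengths; it ran from 25.4 to 26.5 TPM when single libraries were left out. The share of TPM became 0.310% with protein coding genes alone. The interquartile range on the log2 scale became 1.99 with a pseudocount of 0.1. Mrps18b minus Mrps18a reversed to -0.093 with principal lengths (exact permutation p = 0.5), and by CPM Mrps18b minus Mrps18c reversed to 0.40 and Mrps18a minus Mrps18c to 0.21. Sizes also moved where signs held, with Mrps18b minus Mrps18a at 0.19 by CPM, Mrps18a minus Mrps18c at -0.25 by principal length, Mrps12 minus Mrps7 at -1.73 by CPM and Mrpl58 minus Mrpl4 at -2.68 by principal length. The principal length and the overlap limit were chosen after seeing the data. No alternative called a gene of the set as varying, and 1 to 4 had an unadjusted p under 0.05, in settings that called 35 to 108 of 10265 to 20719 genes, so few calls were to be had in any set of this size. The adjusted p of Mrpl12, 0.170, ran from 0.0958 to 0.889 over the alternatives of edgeR and DESeq2, with 0.837 without replicate 3 and 0.889 without replicate 4. Depth limits Mrpl53, with 26 fragments, and Mrps36, with 228.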
